A study of Mus musculus with 40 samples.

Results

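The prefrontal cortex of Df(16)A/+ mice was compared with that of wild-type littermates. The comparison holds every array titled Df(16)A/+_PFC or wt_PFC, which is 20 of the 40 arrays in the series, and the other 20 are hippocampal arrays of the same genotypes. Df(16)A/+ mice carry 1 copy of an engineered deletion on chromosome 16, so the genes inside it are present in 1 copy in place of a pair. The 10 Df(16)A/+ and 10 wild-type samples were from males aged 8 weeks on the C57BL/6 background, untreated, and the labels call the arrays biological replicates of each genotype. Total RNA from the tissue was hybridized to Affymetrix Mouse430_2 arrays, on which a probe set is a group of short probes for 1 transcript. Values are log2 signals, a difference is the mean of the 10 Df(16)A/+ arrays minus the mean of the 10 wild-type arrays, and its error is the standard error (SE) of the fit. A difference of 1 on this scale is a doubling.

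The deletion covers the mouse counterpart of a stretch that is lost in people with the 22q11.2 deletion syndrome, which raises the risk of schizophrenia and of cognitive impairment. Among its genes is Dgcr8, whose protein holds the hairpins of primary microRNA transcripts for the nuclease Drosha, the first cut in the making of most microRNAs. Other genes of the interval encode a citrate carrier, an enzyme of proline breakdown, a palmitoyltransferase, a receptor for myelin inhibitors and a tight-junction protein of brain capillaries. The prefrontal cortex is a cortical region for working memory and planning, made of layered excitatory neurons, interneurons, glia and vessels.

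Several probe sets that differed between the genotypes measure transcripts whose annotated span holds microRNA hairpins. The mature microRNAs of those spans are shown because the hairpin, not the mature product, lies in the RNA that the array reads. Each is written 5′ to 3′ from RefSeq (build GRCm38.p6), with the seed, bases 2 to 8, in capitals. The span of Lncppara holds mmu-let-7c-5p (chr15:85706616-85706637, plus strand) and mmu-let-7b-5p (chr15:85707325-85707346, plus strand), which share the seed GAGGUAG. The span of A330023F24Rik holds mmu-miR-29b-3p (chr1:195037091-195037113, plus strand) and mmu-miR-29c-3p (chr1:195037600-195037621, plus strand), which share the seed AGCACCA. C130071C03Rik and Mir9-3hg hold separate copies of mmu-miR-9-5p (chr13:83738821-83738843 and chr7:79505279-79505301, plus strand). Mir22hg holds mmu-miR-22-3p (chr11:75463772-75463793, plus strand), and Mir138-2 gives mmu-miR-138-5p (chr8:94324312-94324334, plus strand). Dleu2 holds mmu-miR-16-5p (chr14:61631936-61631957, minus strand) and mmu-miR-15a-5p (chr14:61632075-61632096, minus strand), which share the seed AGCAGCA. The last sequence, mmu-miR-185-3p (chr16:18327405-18327425, minus strand), comes from the span of Tango2 inside the deletion.
mmu-let-7c-5p: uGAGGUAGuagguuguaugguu
mmu-let-7b-5p: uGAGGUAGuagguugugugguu
mmu-miR-29b-3p: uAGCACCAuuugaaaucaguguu
mmu-miR-29c-3p: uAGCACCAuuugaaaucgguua
mmu-miR-9-5p: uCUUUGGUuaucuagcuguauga
mmu-miR-22-3p: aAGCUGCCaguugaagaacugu
mmu-miR-138-5p: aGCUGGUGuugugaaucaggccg
mmu-miR-16-5p: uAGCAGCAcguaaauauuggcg
mmu-miR-15a-5p: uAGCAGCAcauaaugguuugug
mmu-miR-185-3p: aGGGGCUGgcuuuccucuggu

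The arrays were close to each other, with correlations of 0.9961 to 0.9993 over the tested probe sets. The difference between the 3′ and 5′ beta-actin probe sets, a sign of RNA integrity, ran from 1.11 to 1.35 in Df(16)A/+ and from 1.12 to 1.39 in wild type. The number of arrays limits the precision, and the median SD of a probe set was 0.135 in Df(16)A/+ and 0.114 in wild type. The run records showed that genotype was unevenly spread over 3 hybridization runs (arrays hybridized on the same day, started within minutes of each other) and 2 chip lots. Run 3 on lot 1 held 3 wild-type arrays and 1 Df(16)A/+ array. Run 4 held 5 Df(16)A/+ arrays and 1 wild-type array on lot 1, and 6 wild-type arrays on lot 2. Run 5 on lot 1 held 4 Df(16)A/+ arrays. A fit with run and lot as blocks therefore compared 4 wild-type arrays with 6 Df(16)A/+ arrays, and 2 of these arrays, replicate 10 of each genotype, carried much of its weight. Replicate 10 of Df(16)A/+ also had the highest mean over the oligodendrocyte precursor markers (0.44). The same array was highest over the 5 measured of 11 hippocampal marker genes (0.63 above the wild-type mean). Of the 5, Pkp2 read 8.91 there, where the highest wild-type array read 7.09, and Wfs1 (11.60) and Fibcd1 (4.84) were also above wild type. Neurod1 (9.33) and Zbtb20 (10.38) lay within the wild-type range. The mean of this list also exceeded the highest wild-type array (0.10) in Df(16)A/+ replicates 9 (0.47), 2 (0.31), 8 (0.22), 1 (0.14) and 7 (0.14). It was below 0 in Df(16)A/+ replicates 3, 4, 5 and 6. Pkp2 read 8.88 in Df(16)A/+ replicate 9 and 8.04 in replicate 8. Wild-type replicate 7 had the highest mean over the microglial markers (0.54). Results below are given with both fits. For calls made in both, the number of the 20 fits with 1 array left out in which both still called the gene is given as a count of 20.

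Of 21653 probe sets above 4 (log2) in at least 10 of the 20 arrays, 4000 differed between the genotypes at an adjusted p under 0.05 without blocks, which was 18.5%. Of these, 1286 were higher and 2714 lower in Df(16)A/+. The share of higher calls, 32.1%, was 42.8% after quantile normalization, so the split between the directions depended on the scaling. With run and lot as blocks the calls numbered 455, with 299 higher and 156 lower, and the median SE rose from 0.06 to 0.10. This split also depended on the scaling. The share of higher calls with the blocks was 65.7%, but 50% of 604 calls after quantile normalization and 70.9% of 285 after median centring. The fits share their arrays, so agreement in direction between them is partly built in. In both, 301 probe sets were called, 175 higher and 126 lower, and 0 were called in opposite directions. Of the 4000 calls, 3981 kept their sign with the blocks. Most differences were small. Counted over 10991 genes, each by the probe set with the highest mean signal, 23 were at least 1.5-fold higher and 36 at least 1.5-fold lower among those called without blocks. The median difference over all genes was -0.04, and -0.02 with the blocks.

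**Figure D1:**
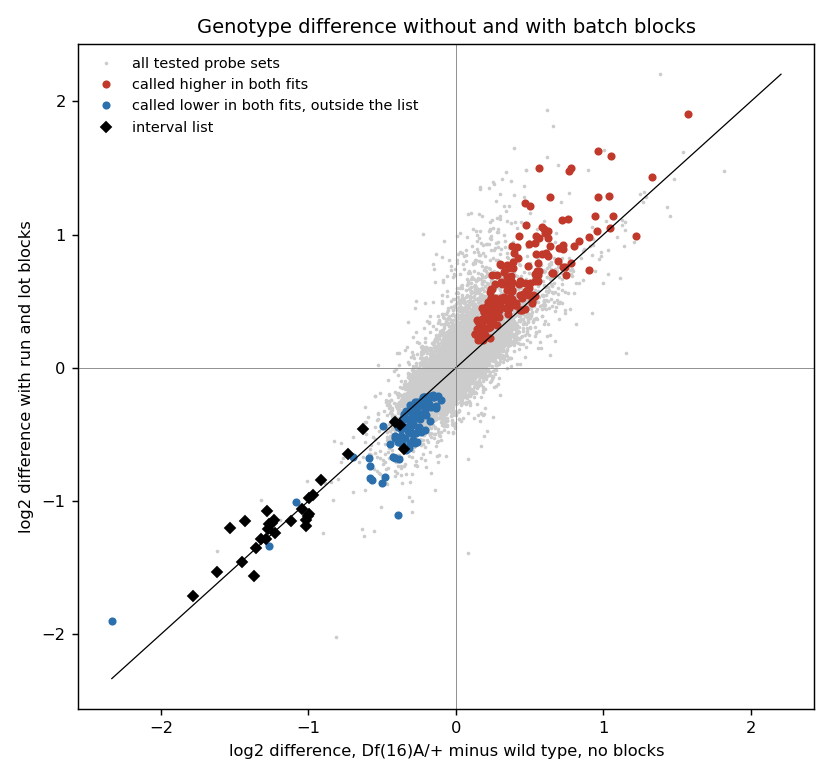
Log2 difference of each tested probe set without blocks (horizontal) and with hybridization run and chip lot as blocks (vertical), with a line where both are equal. Red points are the 175 probe sets called higher in both fits, blue points those called lower in both fits outside the interval list, and black diamonds the 29 probe sets of interval genes, which lie near the line.

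The interval genes were examined first, since they also check the genotype labels. Of 35 listed genes of the deletion, 26 had a probe set of their own on the array and 20 passed the filter. Tssk1, Tssk2, Gsc2, Cdc45, Gnb1l and Tbx1 were on the array but under the filter, and 9 had no probe set of their own here. Without blocks, lower calls made up 15.7% of all 10991 genes. All 20 interval genes were lower, and all 20 remained lower when each array was left out in turn. With run and lot blocks, where 0.873% of all genes were lower, 19 were called, and 15 were called in both fits without replicate 10 of either genotype. The median difference of the 20 genes was -1.18, which is 44.3% of the wild-type signal. Over their 29 probe sets the median was -1.23 (42.7%), and in 25 of the 29 every Df(16)A/+ array lay below every wild-type array. Such separation of the groups was found for 0.928% of all probe sets tested.

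Dgcr8 had 2 probe sets, and the one with the higher signal read 8.79 to 9.18 (median 8.95) in wild type and 7.75 to 8.61 (median 8.21) in Df(16)A/+. The groups did not overlap, and the difference was -0.73 ± 0.09 (adjusted p = 1.47e-05; -0.65 with blocks, adjusted p = 0.0419). When each array was left out in turn, this probe set was called in both fits in 7 of 20 cases, and the other Dgcr8 probe set, which fell by 0.91, in 20 of 20. Its 2 probe sets kept 60.3% and 53.1% of the wild-type signal, more than the median interval gene.

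Genes of metabolism and transport in the interval fell by about 1 log2 unit or more. Tango2, needed for normal metabolism under fasting in people, read 10.09 to 10.27 (median 10.14) in wild type and 8.76 to 9.03 (median 8.90) in Df(16)A/+, a difference of -1.27 ± 0.04. Slc25a1, the mitochondrial citrate carrier, fell by 1.23 ± 0.05, and Prodh, which starts proline breakdown, fell by 0.97 ± 0.09. Mrpl40, a protein of the mitochondrial ribosome, fell by 1.45 ± 0.06 to 36.6% of wild type. In all 4 genes the groups were apart and the blocked estimates were within 0.10 of these values.

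Genes for signalling and for cell contacts fell as far. Rtn4r, the Nogo receptor, read 9.56 to 9.95 (median 9.81) in wild type and 8.64 to 8.87 (median 8.72) in Df(16)A/+, with no overlap and a difference of -1.05 ± 0.05. Zdhhc8, a palmitoyltransferase of neurons, fell by 1.36 ± 0.07. Cldn5, the tight-junction protein of capillary endothelium, fell by 1.62 ± 0.16 to 32.5% of wild type, the lowest share among the probe sets chosen for the 20 genes. Arvcf, a catenin, fell by 1.01 ± 0.11, with a Df(16)A/+ mean of 3.81 that is under the filter value.

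Genes for nuclear and protein-handling functions were lower as well. Ranbp1, a partner of the Ran transport cycle, fell by 1.23 ± 0.05, and Ufd1, which helps extract ubiquitylated proteins, by 1.25 ± 0.06. Hira, a chaperone of histone H3.3, fell by 1.00 ± 0.10, and Trmt2a, a tRNA methyltransferase, by 1.37 ± 0.12. Dgcr2, a membrane protein, fell by 1.12 ± 0.04, and Dgcr6 by 1.32 ± 0.05. On the probe sets counted, these 6 genes had groups that did not overlap. The other Trmt2a probe sets differed by -1.53 without overlap and by -0.38 with overlap. Txnrd2, the mitochondrial thioredoxin reductase, on its probe set with the highest signal, and Car15, a carbonic anhydrase, had groups that overlapped. That Txnrd2 probe set differed by -0.35 ± 0.09. Another of its probe sets differed by -0.99 without overlap, and the remaining probe set by -0.41 with overlap. Car15 differed by -0.63 ± 0.12 (adjusted p with blocks 0.278). The remaining genes, Gp1bb, Ess2 and 2510002D24Rik, fell by 1.28, 1.02 and 1.00.

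Of 338 genes on chromosome 16 outside the interval list, 14 were called higher and 49 lower, 18.6% in all. The share called on the other 19 chromosomes, X included, ranged from 14.5% on chromosome 10 to 22.2% on chromosome 19. The largest fall among the tested probe sets was not in a named gene. Probe set 1441391_at, matched to no gene in the annotation used here, had a mean of 5.68 in wild type and 3.35 in Df(16)A/+, a difference of -2.33 ± 0.19 (adjusted p = 3.36e-08; with blocks -1.90, adjusted p = 0.00435), and its groups did not overlap. Its Df(16)A/+ mean is under the filter value, where signals stand least above background, so the size of this fall is uncertain.

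Primary microRNA transcripts, the substrates of Dgcr8 and Drosha, were examined next. Of 31 listed host transcripts 19 were on the array and 15 were measured. Without blocks 9 of the 15 were higher and 0 lower, where 3.27% of all genes were higher. With blocks 7 of the 15 were higher, where 0.737% of all genes were. The median difference of the 15 was 0.35 (0.38 with blocks), against -0.04 over all genes. Their mean deviation from the wild-type mean ran from -0.17 to 0.11 over the wild-type arrays and from 0.31 to 0.50 over the Df(16)A/+ arrays, so the genotypes were apart on this measure. It was 0.42, 0.42 and 0.39 in the Df(16)A/+ arrays of runs 3, 4 and 5. In the wild-type arrays it was 0.01 in run 3, -0.17 on lot 1 of run 4 and 0.03 on lot 2 of run 4. When each array was left out in turn, 9 or 10 were called without blocks. In both fits 4 to 8 were called, with 4 when wild-type replicate 10 was left out and 7 without Df(16)A/+ replicate 10.

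Lncppara, the noncoding host of let-7c-2 and let-7b, read 6.35 to 6.81 (median 6.55) in wild type and 7.37 to 8.15 (median 7.82) in Df(16)A/+. The groups did not overlap, and the difference was 1.22 ± 0.09 (adjusted p = 5.89e-09; 0.99 with blocks). A330023F24Rik, the host of miR-29b-2 and miR-29c, read 8.74 to 9.43 (median 8.89) in wild type and 9.92 to 10.14 (median 10.04) in Df(16)A/+. All 10 Df(16)A/+ arrays lay above the wild-type range, with a difference of 1.04 ± 0.07 (adjusted p = 6.19e-09; 1.29 with blocks).

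Both measured hosts of miR-9, a microRNA abundant in brain, were higher. C130071C03Rik read 9.99 to 10.28 (median 10.16) in wild type and 10.46 to 10.87 (median 10.76) in Df(16)A/+. Mir9-3hg read 9.72 to 9.88 (median 9.81) in wild type and 10.10 to 10.39 (median 10.30) in Df(16)A/+. The differences were 0.56 ± 0.05 and 0.47 ± 0.04, and neither gene's groups overlapped. Mir22hg, the host of miR-22, read 10.10 to 10.35 (median 10.25) in wild type and 10.58 to 10.89 (median 10.78) in Df(16)A/+, a difference of 0.52 ± 0.04 with no overlap. With blocks these 3 differences were 0.65, 0.44 and 0.49, and each was called. Lncppara, A330023F24Rik, C130071C03Rik and Mir9-3hg were called in both fits in 20 of 20, and Mir22hg in 19, the loss being without wild-type replicate 10.

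Dleu2, the host of miR-15a and miR-16-1, differed by 0.63 ± 0.12 (1.03 with blocks), and its groups met without overlapping, since the highest wild-type array was at 5.88 and the lowest Df(16)A/+ array at 5.90. Ftx, a noncoding RNA of the X-inactivation centre that holds miR-374b and miR-421, rose by 0.56 ± 0.12 (0.97 with blocks), with overlapping groups. In both fits Dleu2 was not called without wild-type replicate 10, and Ftx not without replicate 10 of either genotype. Mirg, which lies in the imprinted cluster of chromosome 12 with many hairpins, rose by 0.35 ± 0.06 (adjusted p = 0.000929; with blocks 0.35, adjusted p = 0.0982). Another Mirg probe set rose by 0.73 ± 0.06 and was called with blocks (0.89), in 20 of 20. Mir124-2hg rose by 0.19 ± 0.06 (adjusted p with blocks 0.0643). The other 6, Mir124a-1hg, Mir99ahg, Meg3, Rian, Gas5 and Snhg14, were not called in either fit, with differences of -0.10 to 0.31. Meg3 differed between its probe sets, since the one with the highest signal gave 0.09 ± 0.04 and another gave 0.53 ± 0.07, with groups that did not overlap.

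**Figure D2:**
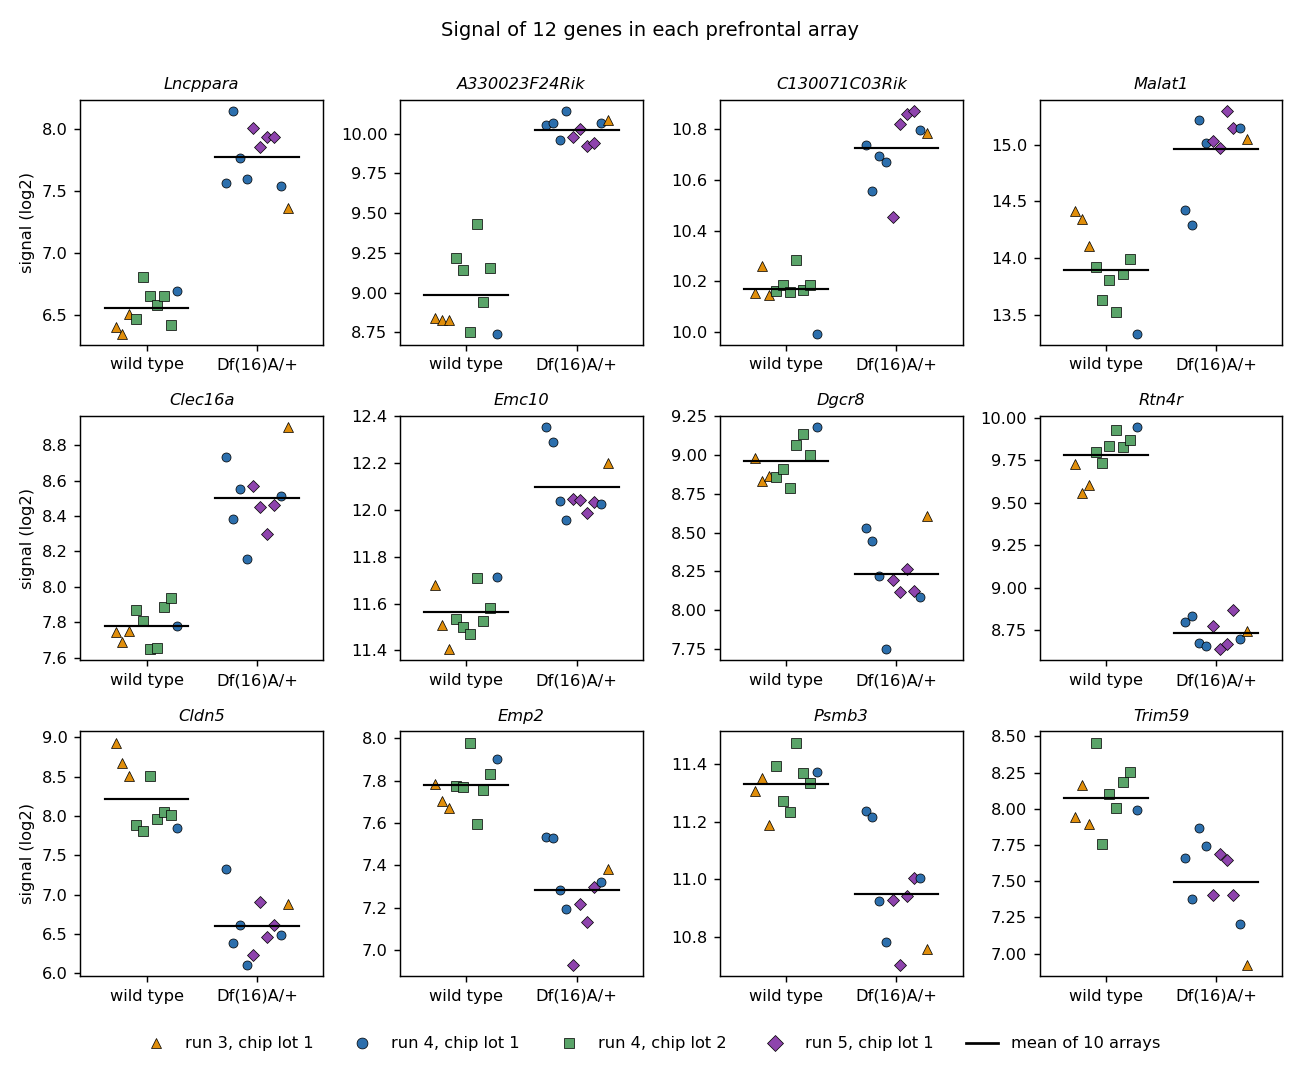
Log2 signal in each of the 20 arrays for 12 genes, with wild type on the left of each panel, the symbol showing run and lot, and the bar the mean of 10 arrays. For Lncppara, A330023F24Rik, C130071C03Rik, Clec16a, Emc10, Dgcr8, Rtn4r, Cldn5 and Emp2 the genotypes do not overlap, while single runs can stand apart within a genotype, as for Cldn5 in the wild-type arrays of run 3.

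Proteins that act on microRNAs did not move as a group. Of 21 measured genes of that list 1 was higher and 2 were lower, with a median of -0.01. The lower genes were Dgcr8 itself and Prkra, a partner of Dicer, at -0.31 ± 0.07 (adjusted p with blocks 0.221). The higher gene was Tnrc6b, a scaffold of the silencing complex, at 0.15 ± 0.04 (adjusted p with blocks 0.0529).

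Of 3 genes studied before in this deletion, each counted by its probe set with the highest signal, Emc10 and Gsk3b were higher and Atp2a2 was not called. Emc10, a subunit of the ER membrane protein complex, read 11.40 to 11.71 (median 11.53) in wild type and 11.96 to 12.36 (median 12.04) in Df(16)A/+. The groups did not overlap, and the difference was 0.54 ± 0.05 (adjusted p = 1.44e-06; with blocks 0.54, adjusted p = 0.00744). Means of Df(16)A/+ arrays were 12.20, 12.13 and 12.03 in runs 3, 4 and 5, against 11.53 in run 3, 11.71 on lot 1 of run 4 and 11.55 on lot 2 of run 4 in wild type. Without Df(16)A/+ replicate 10 Emc10 was no longer called with the blocks. Gsk3b, a kinase of Wnt and insulin signalling, rose by 0.27 ± 0.06 without blocks (with blocks 0.26, adjusted p = 0.136), while another of its probe sets differed by -0.04. Atp2a2, the calcium pump of the endoplasmic reticulum, differed by 0.05 ± 0.03 (adjusted p = 0.303). Another Atp2a2 probe set was called higher without blocks, at 0.19 (adjusted p = 0.00532), but not with blocks (adjusted p = 0.334). The remaining Atp2a2 probe sets were not called.

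In all, 141 genes were called in the same direction in both fits, which was 1.28% of the genes tested, and 122 of these lay outside the interval list, 61 higher and 61 lower. The count ranged from 60 without Df(16)A/+ replicate 10 to 226 without Df(16)A/+ replicate 1, and was 129 without wild-type replicate 10. It was 84 without wild-type replicate 1, 67 without replicate 2 and 93 without replicate 8. The 12 largest rises and 12 largest falls of this set with both group means above 4 are described next.

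Among the 12 rises were 4 of the hosts described above, Lncppara, A330023F24Rik, Dleu2 and Ftx. Mir138-2, the precursor of miR-138, was also among them, at 0.61 ± 0.12 (0.86 with blocks). Malat1, an abundant nuclear noncoding RNA, read 13.34 to 14.42 (median 13.89) in wild type and 14.29 to 15.30 (median 15.04) in Df(16)A/+. The groups overlapped in a narrow range, and the difference was 1.06 ± 0.14 (adjusted p = 8.25e-05; 1.14 with blocks). Its probe sets did not all move one way, since another of them differed by -0.25 and was called lower.

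The largest of the 12 rises by log2 difference was in Tmem178b, which encodes a transmembrane protein, at 1.33 ± 0.21 (1.44 with blocks). It read 6.86 to 7.68 in wild type and 7.36 to 9.30 in Df(16)A/+, with overlap. Clec16a, a regulator of mitophagy, read 7.65 to 7.94 (median 7.76) in wild type and 8.16 to 8.90 (median 8.49) in Df(16)A/+, a difference of 0.73 ± 0.07 (0.92 with blocks) without overlap. Endod1, which has an endonuclease domain, rose by 0.74 ± 0.09 without overlap, and 1 other of its probe sets differed by -0.09. The unnamed transcript 2810049E08Rik rose by 0.65 ± 0.07 without overlap. Acin1, which takes part in splicing and in chromatin condensation during apoptosis, rose by 0.62 ± 0.11, and its second probe set differed by 0.09. Cyp26b1, which degrades retinoic acid, rose by 0.62 ± 0.14 with overlap, and its highest value, 8.18, came from Df(16)A/+ replicate 10.

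The 12 falls outside the interval were smaller. Emp2, an epithelial membrane protein, read 7.60 to 7.98 (median 7.77) in wild type and 6.93 to 7.53 (median 7.29) in Df(16)A/+, and was the only one of the 12 whose groups did not overlap. It fell by 0.49 ± 0.07 (-0.44 with blocks). Trim59, of the TRIM family of ubiquitin ligases, fell by 0.58 ± 0.10, and Psmb3, a subunit of the proteasome core, by 0.38 ± 0.06. Fbxl4, an F-box protein of mitochondria, fell by 0.42 ± 0.09. Adcy8, an adenylyl cyclase driven by calcium, fell by 0.41 ± 0.07, and Alg3, a mannosyltransferase of protein glycosylation, by 0.41 ± 0.10. The others were Gm12371, Tnfaip2, Rilpl2, Tmem42, Snhg10 and Hunk, with differences of -0.50 to -0.39. Rilpl2 differed more with blocks (-1.10) than without (-0.39), and its highest wild-type array, replicate 10, read 10.63.

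Of the 12 rises, Lncppara, A330023F24Rik and Clec16a were called in both fits in 20 of 20, and Malat1 in 19, not without wild-type replicate 10. Tmem178b was called in both fits in 16 and Mir138-2 in 15, and neither without replicate 10 of either genotype. Among the falls Rilpl2 was called in both fits in 5 of 20, and Snhg10 and Tnfaip2 in 6 each. Psmb3 was called in 9, Emp2 in 16, and Adcy8 and Tmem42 in 19 each. Another Psmb3 probe set, with a lower signal, differed by -0.42 and was called in both fits in 19. Without blocks all 12 rises were called when any 1 array was left out, and 11 or 12 of the falls. In both fits 4 rises and 5 falls were called without wild-type replicate 10, and 5 rises and 1 fall without Df(16)A/+ replicate 10. In the hippocampus, where 6.47% of 21153 probe sets were called without blocks, 11 of the 12 rises were tested. All 11 had the same sign and 8 were called, among them Clec16a at 1.06, Lncppara at 0.95 and Malat1 at 0.87. Of the falls 11 were tested, 8 had the same sign and 4 were called, with Trim59 at -0.61 the lowest. With run as a block in the hippocampus 2 rises, Lncppara and A330023F24Rik, and 0 falls were called. In that fit 9 of the 11 rises and 10 of the 11 falls had the same sign as in the prefrontal cortex, and Malat1 (-0.34) and Acin1 (-0.04) had the opposite one. The difference between the regions was not tested.

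**Figure D3:**
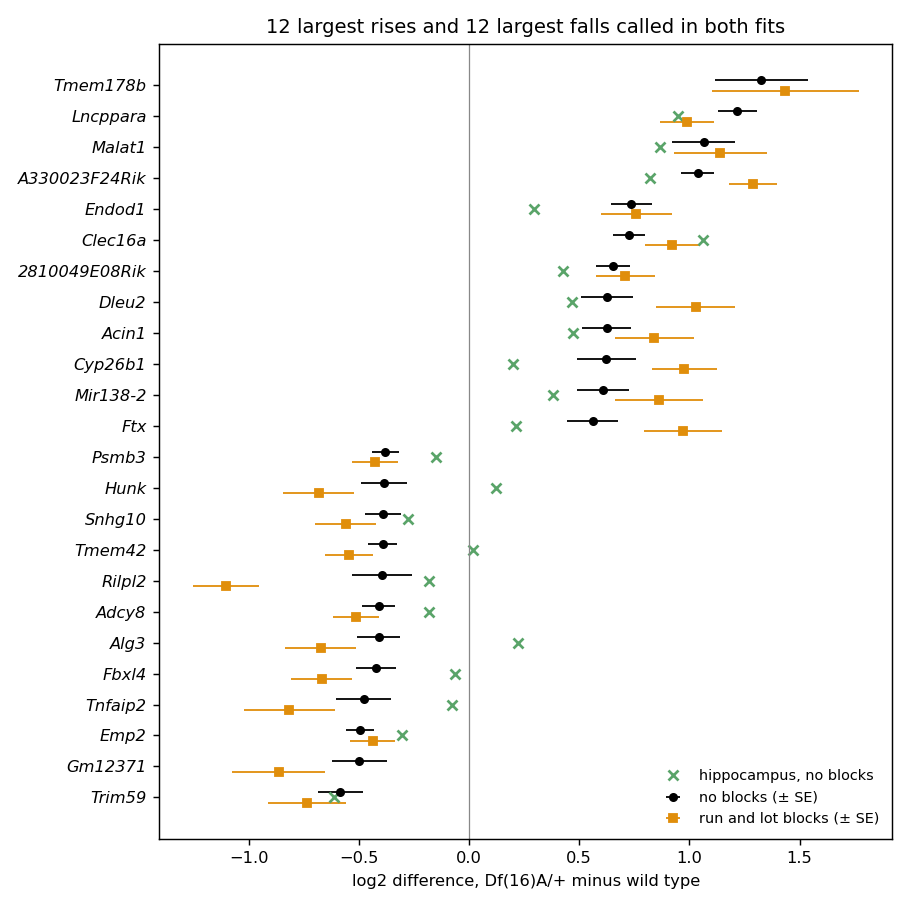
Log2 difference of the 12 largest rises and 12 largest falls called in both fits, without blocks (black, ± SE), with run and lot blocks (orange, ± SE) and in the hippocampus without blocks (green crosses; Tmem178b and Gm12371 were not tested there). The rises are positive in both regions without blocks, and the falls of Alg3, Hunk and Tmem42 are at or above 0 in the hippocampus.

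Groups that did not overlap were found for 201 probe sets, 33 higher and 168 lower, 143 of the lower ones outside the interval list. The genes in this paragraph were chosen after their values were seen. Camk2a, the kinase of the postsynaptic density, read 12.39 to 12.75 (median 12.55) in wild type and 12.81 to 13.25 (median 13.04) in Df(16)A/+, on a probe set that differed by 0.49 ± 0.06 (0.55 with blocks). The Camk2a probe set with the highest signal was another one, and it was not called without blocks. Aopep, an aminopeptidase, was separate on 2 probe sets, at 0.90 ± 0.09 and 0.51 ± 0.07. Ogt, which attaches N-acetylglucosamine to nuclear and cytosolic proteins, rose by 0.38 ± 0.06, and Sptbn1, a spectrin of the membrane skeleton, by 0.56 ± 0.09. Chka, a choline kinase, rose by 0.48 ± 0.07, and Setd7, a lysine methyltransferase, by 0.29 ± 0.05. All of these were also called with blocks, but in both fits Camk2a, Ogt, Chka, Setd7 and both Aopep probe sets were not called without Df(16)A/+ replicate 10, and Sptbn1, Chka and Setd7 not without wild-type replicate 10. Tcf4, a transcription factor of neurons, rose by 0.28 ± 0.04 on a probe set that was not called with blocks (adjusted p = 0.0666). Among the lower ones were Lgi2, a secreted neuronal protein (-0.59 ± 0.08), Mthfd2l, a mitochondrial folate enzyme (-0.62 ± 0.09), and Baz1b, a chromatin remodeller (-0.58 ± 0.11). With blocks Lgi2 was called, in 18 of 20, and Mthfd2l (adjusted p = 0.0776) and Baz1b (adjusted p = 0.0568) were not.

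Many genes of the respiratory chain were lower, by small amounts, where 15.7% of all genes were lower. In complex I 23 of 33 measured genes were lower and 0 higher, all 33 differences were negative, and their median was -0.13 against -0.04 over all genes. In complexes II to IV 15 of 24 were lower and in ATP synthase 11 of 15, with 0 higher and medians of -0.11 and -0.14. Ndufb10 fell by 0.20 ± 0.04 and Ndufs3 by 0.17 ± 0.03, both subunits of complex I. Cyc1, the cytochrome c1 of complex III, fell by 0.28 ± 0.04, and Cox5b, a subunit of cytochrome c oxidase, by 0.16 ± 0.03. Atp5c1, a subunit of the ATP synthase stalk, read 12.74 to 12.98 (median 12.82) in wild type and 12.49 to 12.71 (median 12.64) in Df(16)A/+, a difference of -0.21 ± 0.03 with no overlap. In bulk tissue fewer cells of a type and less RNA per cell cannot be told apart, here and below.

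The means were lower in Df(16)A/+ in runs 3 and 4, which held both genotypes, but single genes seldom passed with the blocks. The mean deviation over complex I was -0.05 to 0.05 in the wild-type arrays and -0.22 to -0.05 in the Df(16)A/+ arrays. It was -0.14, -0.12 and -0.14 in the Df(16)A/+ arrays of runs 3, 4 and 5, and -0.01, 0.03 and 0.00 in the wild-type arrays of run 3 and of lots 1 and 2 of run 4. With both blocks, where 0.873% of all genes were lower, 0 of 33 complex I genes were called, although their median was -0.14. In the other complexes Cox5b (-0.22) and Atp5c1 (-0.29) were called with blocks. Cox5b was called in both fits in 16 of 20, not without wild-type replicates 1, 2 and 10 or Df(16)A/+ replicate 10, and Atp5c1 in 19, not without wild-type replicate 10. Probe sets of Ndufb2 (complex I) and Uqcrc2 (complex III) that were not counted in these lists were also called lower with blocks, at -0.20 and -0.28. They were called in both fits in 5 and 19 of 20. When each array was left out in turn, 21 to 24 complex I genes were lower without blocks. In the hippocampus Ndufb10 differed by -0.18 and Ndufs3 by 0.06, and Atp5c1 by 0.03.

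Other mitochondrial lists held lower calls and 0 higher ones. Of 74 genes for mitochondrial ribosomal proteins 39 were lower and 0 higher, with a median of -0.14, and Mrps12 (-0.23 ± 0.04) and Mrpl57 (-0.27 ± 0.04) were called with blocks, in both fits in 12 and 8 of 20. Of 26 genes for import into mitochondria 10 were lower and 0 higher. Timm23, the channel of the inner membrane, read 11.51 to 11.61 (median 11.56) in wild type and 11.18 to 11.46 (median 11.31) in Df(16)A/+. The groups did not overlap, and the difference was -0.25 ± 0.03 (with blocks -0.27, adjusted p = 0.0209). Timm8b, a small chaperone of the intermembrane space, fell by 0.22 ± 0.03 and was called in both fits too. Neither was called in both fits without Df(16)A/+ replicate 10, and Timm23 was called in 19 and Timm8b in 5 of 20, while Timm17a fell by 0.22 ± 0.03 and was not called with blocks (adjusted p = 0.0786). Of 22 genes of the citric acid cycle and pyruvate oxidation 6 were lower and 0 higher, among them Pdhb (-0.19 ± 0.03), of pyruvate dehydrogenase, with no overlap, and Fh1 (-0.21 ± 0.04), fumarase. Of 14 glycolytic genes 4 were lower and 0 higher, led by Tpi1 at -0.21 ± 0.04. With blocks, where 0.873% of all genes were lower, 0 genes of these last 2 lists were called.

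Of the genes for protein turnover, redox balance and acidification, the proteasome subunits had the highest share of lower calls, where 15.7% of all genes were lower. Of 37 proteasome subunits 19 were lower and 1 higher, with a median of -0.11. Psma2, of the core ring, read 11.73 to 11.85 (median 11.77) in wild type and 11.43 to 11.66 (median 11.59) in Df(16)A/+, with no overlap. Its difference was -0.22 ± 0.03. Psma2 and Psmb3 were called with blocks, in both fits in 7 and 9 of 20. Psma5 and Psmc1 fell by 0.20 ± 0.03 and 0.25 ± 0.04, both without overlap. Of 28 genes of the glutathione and thioredoxin systems 11 were lower and 1 higher. Mgst3, a microsomal glutathione transferase, fell by 0.29 ± 0.04 without overlap (with blocks -0.41, adjusted p = 0.00725, in both fits in 19 of 20, not without wild-type replicate 10). Prdx3, the mitochondrial peroxiredoxin, fell by 0.18 ± 0.04. Of 16 subunits of the vacuolar ATPase 6 were lower, with Atp6ap1 at -0.20 ± 0.03, and of 39 chaperones 7 were lower and 1 higher, with Stip1, a co-chaperone, at -0.32 ± 0.06. With blocks 0 genes of the vacuolar ATPase and chaperone lists were called, where 0.873% of all genes were lower. The chaperone median went from -0.07 to 0.00 with the blocks.

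Cholesterol synthesis showed the largest single differences among the metabolic lists. Of 20 genes 11 were lower and 0 higher, with a median of -0.16. Fdps, which makes farnesyl diphosphate, read 9.89 to 10.24 (median 10.06) in wild type and 9.07 to 9.83 (median 9.55) in Df(16)A/+. The groups did not overlap, and the difference was -0.57 ± 0.08 (with blocks -0.58, adjusted p = 0.0573). Mvd, the decarboxylase of the mevalonate branch, fell by 0.39 ± 0.07 without overlap, and Tm7sf2, a sterol reductase, by 0.58 ± 0.11 with overlap. The mean deviation of the list was -0.23, -0.19 and -0.21 in the Df(16)A/+ arrays of runs 3, 4 and 5, and -0.04, 0.07 and 0.01 in the wild-type arrays of run 3 and of lots 1 and 2 of run 4. With both blocks, where 0.873% of all genes were lower, 0 of the 20 were called. Without blocks 9 to 14 were lower when each array was left out in turn. In the hippocampus Fdps differed by 0.02 and Tm7sf2 by 0.05.

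**Figure D4:**
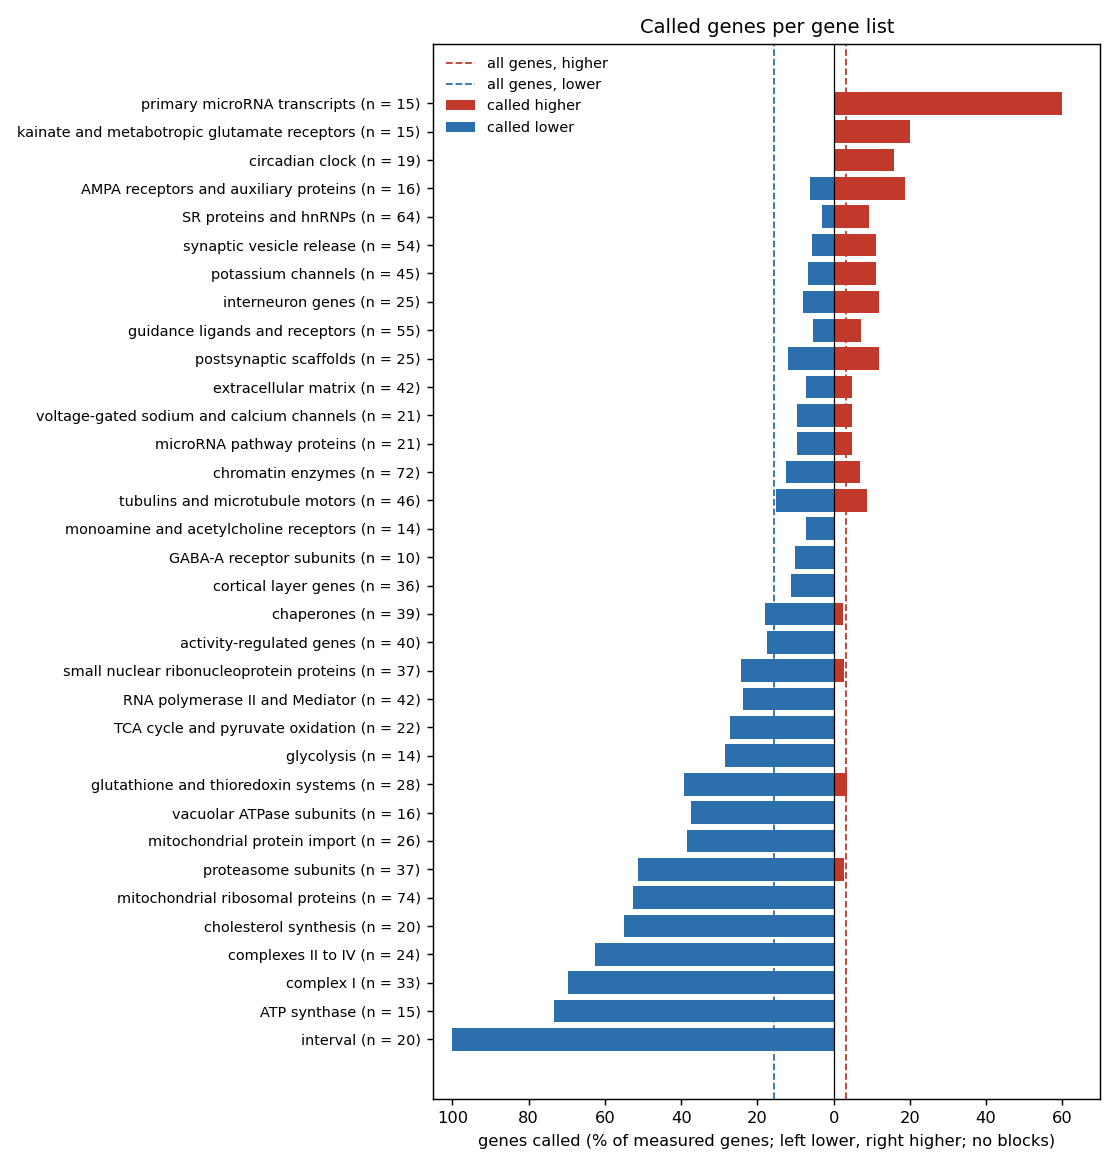
Share of the measured genes of each list called lower (blue, left) or higher (red, right) without blocks, with n the number of measured genes. Dashed lines mark the shares over all 10991 genes, 15.7% lower and 3.27% higher, and the primary microRNA transcripts are at the top and the interval list at the bottom.

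Genes for RNA synthesis, splicing and chromatin were called in both directions, where 3.27% of all genes were higher and 15.7% lower. Of 42 genes of RNA polymerase II and Mediator 10 were lower and 0 higher, led by Polr2j, a small polymerase subunit, at -0.31 ± 0.05. With blocks, where 0.873% of all genes were lower, 0 of the 42 were called, and their median went from -0.08 to -0.04. Of 37 genes for small nuclear ribonucleoproteins 9 were lower and 1 higher, and the higher one was Lsm11, of the histone pre-mRNA particle, at 0.42 ± 0.09. Of 64 genes for SR proteins and hnRNPs 6 were higher and 2 lower, with a median of 0.00. Celf2, a splicing regulator of neurons, rose by 0.13 ± 0.03 and was called with blocks (0.25), but not in both fits without wild-type replicate 10. Srrm4, which controls neuronal microexons, rose by 0.25 ± 0.06, and Tra2b fell by 0.22 ± 0.04. Of 72 chromatin enzymes 5 were higher and 9 lower, with Crebbp, an acetyltransferase, at 0.47 ± 0.10 and Kdm1a, a histone demethylase, at -0.21 ± 0.04. Of 19 clock genes 3 were higher and 0 lower, led by Nr1d1 at 0.45 ± 0.11 (with blocks 0.18, adjusted p = 0.624). With blocks 1 chromatin enzyme was higher and 0 lower, and 0 clock genes were called.

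Activity-regulated genes had wide spreads. Of 40 measured genes 7 were lower and 0 higher, where 15.7% of all genes were lower, and their median was -0.14. With blocks 0 were called, where 0.873% of all genes were lower. Npas4, a transcription factor induced by calcium entry, read 6.71 to 8.30 (median 7.31) in wild type and 5.60 to 7.14 (median 6.29) in Df(16)A/+, a difference of -1.01 ± 0.21 with overlap (with blocks -0.85, adjusted p = 0.221). Ier2 and Inhba fell by 0.55 ± 0.13 and 0.48 ± 0.12. The mean deviation of the list ran from -0.18 to 0.20 in wild type and from -0.49 to 0.18 in Df(16)A/+, so the genotypes overlapped. Its lowest value was that of Df(16)A/+ replicate 10.

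Of 54 genes for synaptic vesicle release 6 were higher and 3 lower, where 3.27% of all genes were higher and 15.7% lower. With blocks 1 was called, where 0.737% of all genes were higher and 0.873% lower. Slc17a7, the vesicular glutamate transporter of cortical neurons, read 12.78 to 13.32 (median 13.06) in wild type and 13.18 to 13.48 (median 13.42) in Df(16)A/+, a difference of 0.32 ± 0.06 with overlap (with blocks 0.27, adjusted p = 0.15). Rimbp2, an active-zone protein, rose by 0.25 ± 0.05 and was the gene called with blocks, in both fits in 18 of 20, not without wild-type replicate 2 or Df(16)A/+ replicate 10. Bsn and Syp, of the active zone and the vesicle membrane, rose by 0.21 ± 0.04 and 0.14 ± 0.04. Of 25 postsynaptic scaffold genes 3 were higher and 3 lower, with Dlg4, the PSD-95 gene, at 0.49 ± 0.09, Dlgap2 at 0.38 ± 0.08 and Kalrn at -0.24 ± 0.05, none called with blocks. In the hippocampus Dlg4 differed by 0.72 and Slc17a7 by 0.38.

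Calls among glutamate receptor genes were set against 3.27% higher and 15.7% lower over all genes. Of 16 genes for AMPA receptors and their auxiliary proteins 3 were higher and 1 lower. Gria1, which encodes the GluA1 subunit, read 11.55 to 11.73 (median 11.64) in wild type and 11.76 to 12.08 (median 11.91) in Df(16)A/+. The groups did not overlap, and the difference was 0.27 ± 0.04 (with blocks 0.22, adjusted p = 0.136). Shisa7 and Cnih2, auxiliary proteins, rose by 0.21 ± 0.06 and 0.15 ± 0.04, and Olfm3 fell by 0.19 ± 0.06. Of 15 kainate and metabotropic receptor genes 3 were higher and 0 lower, at 0.33 ± 0.10 for Grik1, 0.18 ± 0.06 for Grik5 and 0.11 ± 0.03 for Grm5. The NMDA receptor list had 1 of 6 lower, Srr, the serine racemase, at -0.14 ± 0.03, and the GABA-A receptor list 1 of 10 lower, Gabrd at -0.22 ± 0.05. With both blocks 0 genes of these 4 lists were called, where 0.737% of all genes were higher and 0.873% lower.

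Channel, cytoskeletal and guidance genes were called in both directions, against the same shares of all genes. Of 45 potassium channel genes 5 were higher and 3 lower, with Kcnh7 at 0.68 ± 0.20 and Kcnh5 at 0.49 ± 0.15, both with overlap. Of 21 sodium and calcium channel genes 1 was higher and 2 lower, and Scn2b, an auxiliary sodium channel subunit, fell by 0.18 ± 0.03 without overlap. Of 46 genes for tubulins and microtubule motors 4 were higher and 7 lower, and Tubg1, the gamma-tubulin of nucleation sites, fell by 0.35 ± 0.04 without overlap (with blocks -0.33, adjusted p = 0.0502). Of 55 guidance genes 4 were higher and 3 lower. Sema6b and Unc5a rose by 0.32 ± 0.05 and 0.32 ± 0.08, and Sema3a and Dcc fell by 0.22 ± 0.05 and 0.35 ± 0.09. Of 42 extracellular matrix genes 2 were higher and 3 lower, and Lamb1 rose by 0.20 ± 0.06 (called with blocks at 0.36), with its highest array, 7.09, from Df(16)A/+ replicate 10, without which it was not called in both fits. Of 14 receptor and enzyme genes of the monoamine and acetylcholine list 1 was lower, Maoa, which oxidizes monoamines, at -0.35 ± 0.09. Lamb1 was the only gene of these lists called with blocks, where 0.737% of all genes were higher and 0.873% lower.

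Markers of the neurons of the labelled tissue were measured, where 3.27% of all genes were higher and 15.7% lower. All 8 markers of excitatory cortical neurons with a probe set passed the filter, and 2 were higher, Slc17a7 and Nrgn (0.23 ± 0.06). The median difference of the 8 was -0.01, with 3 above 0 and 5 below. The log2 of the summed signal of the 8, in which bright genes weigh most, ran from 15.19 to 15.28 in wild type. In Df(16)A/+ it ran from 15.27 to 15.51. Of 36 cortical layer genes 4 were lower and 0 higher, a share of lower calls under that of all genes. Tle4, of deep-layer neurons, read 9.77 to 10.04 (median 10.02) in wild type and 9.19 to 10.01 (median 9.42) in Df(16)A/+, a difference of -0.47 ± 0.07 (with blocks -0.48, adjusted p = 0.0512), and the groups overlapped. The others were Pcp4 (-0.19 ± 0.05), Pde1a (-0.18 ± 0.06) and Calb1 (-0.13 ± 0.04). Of 25 interneuron genes 3 were higher and 2 lower, with Cnr1 at 0.17 ± 0.04, Gad1 at 0.11 ± 0.04 and Pvalb, of fast-spiking cells, at -0.25 ± 0.08. With blocks 0 genes of these 3 lists were called, where 0.737% of all genes were higher and 0.873% lower. Of 11 measured striatal markers 1 was higher and 1 lower, with a median of 0.01. Ppp1r1b rose by 0.45 ± 0.06 and was called with blocks, in both fits in 6 of 20, and Penk, the enkephalin precursor, fell by 0.17 ± 0.06 and was not called with blocks (adjusted p = 0.567). Drd2, Gpr6 and Six3 of the same striatal list were under the filter.

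Vascular, meningeal and glial markers were set against the 15.7% of all genes that were lower. Of 11 measured endothelial markers 3 were lower and 0 higher, with a median of -0.27. They were Cldn5, itself deleted, Slco1a4 (-0.58 ± 0.15) and Itm2a (-0.43 ± 0.11), and Pecam1, Cdh5 and Kdr were under the filter. The mean deviation of the endothelial list ran from -0.23 to 0.19 in wild type and from -0.76 to 0.22 in Df(16)A/+. The deleted gene Cldn5 is included in this mean deviation and in the median of the list. Of 17 meningeal markers 2 were lower, Slc47a1 (-0.88 ± 0.27) and Ogn (-0.78 ± 0.24), with a median of -0.24, and of 9 mural markers 1 was lower, Pdgfrb (-0.35 ± 0.09). With blocks, where 0.873% of all genes were lower, Cldn5 alone was called in these 3 lists. Cldn5 was not called in both fits without Df(16)A/+ replicate 10. The log2 of the summed meningeal signal ran from 14.25 to 15.04 in wild type and from 14.38 to 15.10 in Df(16)A/+. The part of vessels and meninges in the differences of other genes was not tested.

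Of 14 oligodendrocyte markers 3 were lower and 0 higher, Opalin (-0.45 ± 0.12), Aspa (-0.33 ± 0.11) and Cnp (-0.17 ± 0.06). Of 14 microglial markers 2 were lower, Tyrobp (-0.41 ± 0.11) and C1qa (-0.29 ± 0.10), and the highest wild-type array for both was replicate 7. With blocks, where 0.873% of all genes were lower, 0 oligodendrocyte and 0 microglial markers were called. Of 15 astrocyte markers 2 were higher and 1 lower. Slc1a3, a glutamate transporter of astrocytes, rose by 0.24 ± 0.05 and was called with blocks (0.32), in both fits in 4 of 20, Slc1a2 rose by 0.15 ± 0.03, and Ntsr2 fell by 0.23 ± 0.06. Of 6 markers of oligodendrocyte precursors 0 were called. Choroid plexus markers were nearly all under the filter (2 of 13 passed), among them Ttr and Folr1, and Ecrg4 of that list had a Df(16)A/+ mean of 3.65, itself under the filter value, against 5.27 in wild type. Blood markers Hba-a1, Hba-a2, Alas2 and S100a8 were under the filter. S100a9, of neutrophils, was the 1 blood marker measured, and differed by -0.53 ± 0.61 (adjusted p = 0.397). Its log2 signal was 10.18 in wild-type replicate 7, where the wild-type median was 4.24, and 6.82 in Df(16)A/+ replicate 3, the highest of that genotype.

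The direction of calls varied with the kind of probe set. Probe sets that were the only one of a gene were called higher in 2.59% and lower in 16.7% of 6019 cases. Of 8215 probe sets that were not the one with the highest signal of their gene, 9.81% were higher and 8.92% lower. Among 1934 probe sets matched to no gene 5.53% were higher and 7.08% lower, and with blocks 4.81% and 0.465%. Of 4972 genes with several probe sets, 57 had probe sets called in opposite directions. Zbtb38, a zinc finger protein, had 1 at -0.43 ± 0.10 and another at 1.15 ± 0.32. Dnmt3a, a DNA methyltransferase, had values of 0.22 ± 0.06, -0.50 ± 0.12 and 0.43 ± 0.12. Kalrn had -0.24 ± 0.05 and 0.53 ± 0.11, and Eif3c, a translation factor, had -0.13 ± 0.04, -0.12 ± 0.04 and 0.61 ± 0.12. Which transcripts these probe sets read was not tested.

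Calls also varied with the annotated length of the gene. Of 1196 genes with a span up to 5 kb 1.09% were higher and 26.9% lower, and of 723 genes over 200 kb 4.98% were higher and 9.82% lower. The shares changed in steps between these classes. Across 10957 genes the rank correlation of span and difference was 0.195 (0.242 with blocks), a description across genes that share the same arrays. How far the gene lists above and the span share their calls was not tested. By kind of transcript, 16 of 239 long noncoding RNAs were higher (6.69%) and 34 lower, and 3.2% of 10667 protein-coding genes were higher. With blocks 10 long noncoding RNAs (4.18%) were higher, among them hosts of the microRNAs shown above.

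**Figure D5:**
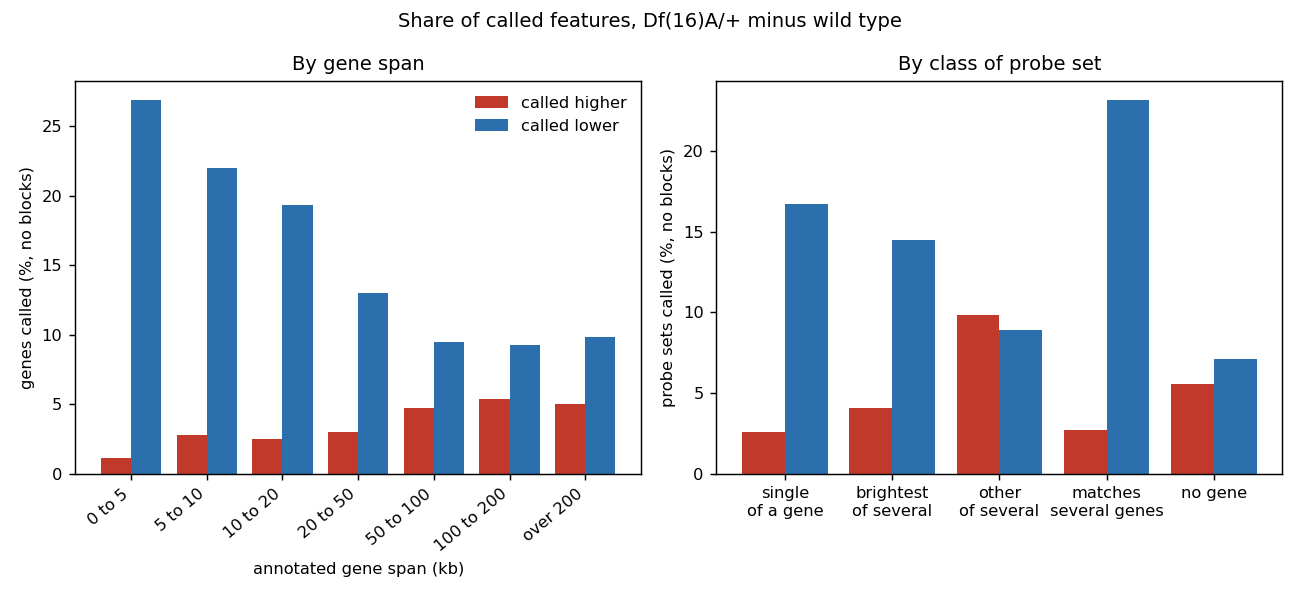
Share of genes called higher (red) or lower (blue) without blocks by annotated gene span in kb, and share of probe sets by class. Lower calls go from 26.9% in the shortest genes to 9.82% in those over 200 kb, and probe sets other than the brightest of a gene are called higher about as often as lower.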

How the data were processed

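Signals were deposited on a log2 scale after GCRMA, as the submitters' processing notes name it. Not given in the sources used here: its version, and the set of arrays it normalized as one. The deposited run records (other text fields, per the file headers) were used for batches alone: a hybridization run is the arrays hybridized on 1 day within 5 minutes of each other, and the chip lot is as recorded. Probe sets were named from the platform annotation and GRCm38.p6 gene names: 34945 of 45101 had 1 gene, 932 had more, 9160 had no gene, and the 64 controls were dropped. Probe sets above 4 in at least 10 of the 20 arrays were fitted on log2 values with limma 3.58.1 in R 4.3.3 (lmFit and eBayes, two-sided, Benjamini-Hochberg over all tested probe sets, called under 0.05), with statmod 1.5.0 and, for reading files, version 1.17.8 of data.table. The second fit added run and lot as fixed blocks. The fit was tested on simulated data. A gene was counted by its probe set with the highest mean.

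Named genes were the 12 largest rises and 12 largest falls called in both fits outside the interval with both group means above 4, every measured interval gene, the primary microRNA transcripts, Emc10, Gsk3b and Atp2a2, and up to 4 members of smallest p from each list with a called member. The members and lists were chosen with earlier results of these data known. The p-values measure the spread between these samples. The hippocampal arrays were fitted alone. Alternatives were run, lot, both, single batches, the replicate number and a beta-actin difference as covariates, quantile normalization, median centring, array weights, a variance trend on intensity with robust estimation, no filter, a filter above 6, an adjusted p under 0.01, the mean over a gene's probe sets, and leaving out each array. The effect of scaling and of left-out arrays on the genes called in both fits and on the lists was added after seeing the data.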

Additional observations from a re-analysis of the deposited data

Results flagged for a closer look

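In 386 groups of 10 arrays, one for each named gene and genotype, the gap of the highest or lowest array to its neighbour, divided by the range, was set against Dixon's 95% critical value for groups of that size. Chance passes about 1 in 20 groups, and 22 passed. In Df(16)A/+, replicate 10 was the highest array for Cyp26b1 (0.583, at 8.18), Unc5a (0.608, at 9.38), Rimbp2 (0.474, at 10.89) and Lamb1 (0.651, at 7.09), and the lowest for Dctn6 (0.475, at 12.65). In wild type, replicate 10 was the highest for Rilpl2 (0.699, at 10.63) and Atp6v0d1 (0.504, at 12.99), and the lowest for C130071C03Rik (0.52, at 9.99) and Celf2 (0.487, at 13.34). These 2 arrays are among those on which the blocked fit rests.

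Df(16)A/+ replicate 4 was the lowest array for Mrpl57 (0.51, at 9.92), Polr2e (0.478, at 9.84) and Igfbp6 (0.468, at 10.07). Df(16)A/+ replicate 7 was the lowest for Car15 (0.485, at 3.54) and the highest for Tshz1 (0.703, at 10.17). Replicate 2 was the lowest for Rian (0.573, at 10.20) and replicate 1 the highest for Stmn3 (0.483, at 14.70).

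Wild-type replicate 7 was the highest array for 2 microglial genes, Tyrobp (0.674, at 10.18) and C1qa (0.663, at 10.94). Wild-type replicate 3 was the lowest for Polr2j (0.607, at 9.63) and Igfbp6 (0.486, at 10.53), replicate 4 the highest for Cct5 (0.47, at 12.17), and replicate 1 the highest for Lrrc4 (0.511, at 11.07).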

How the results depend on the processing

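Batch settings moved the counts most. The 4000 calls became 2003 with run as a block, 986 with lot, 455 with both, 512 within run 4 and 329 within lot 1, and 1504 at an adjusted p under 0.01. Replicate numbers did not pair the samples: same-number correlations ran from -0.166 to 0.342 with 2 of 10 above 0.1, and with the replicate block 3311 were called. The count lay between 3124 and 4929 under the beta-actin covariate, both scalings, trend and robust variance, array weights and both filters. Leaving out 1 array gave 3244 (wild-type replicate 7) to 4704 (Df(16)A/+ replicate 1). The 455 calls with both blocks became 604 after quantile normalization, 285 after median centring, and 252 to 759 without 1 array. They were 293 without wild-type replicate 1, 252 without replicate 2 and 759 without replicate 10. The 141 genes called in both fits became 238 after quantile normalization, 64 after median centring, and 60 to 226 without 1 array. The hippocampal 1369 calls became 33 with run as a block. Of 186 named genes called, 60 remained called with both blocks, 176 after quantile normalization and 159 as the mean over the gene's probe sets, where 4 changed sign: Scn1a (0.0578, adjusted p 0.537), Tra2b (0.0046, adjusted p 0.955), Kalrn (0.0834, adjusted p 0.248) and Kcnc1 (-0.0010, adjusted p 0.991). Genotype and batch cannot be fully told apart here: wild-type arrays on lot 2 and Df(16)A/+ arrays of run 5 have no partner in their batch. Values near the filter have the least signal over background.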
